A study of Homo sapiens with 6 samples.

Results

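The genes described here are 9 cell-surface and secreted adhesion molecules of nodes of Ranvier and of axon-glia contact, out of 33841 genes listed in the count table. They are the L1 family (NFASC, NRCAM, L1CAM and CHL1), the contactin CNTN1 and its partner CNTNAP1, the neural cell adhesion molecules NCAM1 and NCAM2, and gliomedin (GLDN). They were taken by name as NFASC, GLDN and their relatives, with the difference between the genotypes already known from these libraries. That difference is therefore given for them as a description, without p-values. The RNA came from LN229, an established human glioblastoma cell line, grown without further treatment. WT is the parental line carrying intact PARP3. The PARP3-/- cells were derived from it with CRISPR/Cas9, by a disruption that the labels place between exons 2 and 9 of PARP3. In the methods, paired guides for a nicking Cas9 were directed to exons 2 and 5 and colonies were raised from single sorted cells. The sequenced colony is not named in the sources used here, and an effect of genotype and an effect of the colony cannot be told apart. Each genotype had 3 biological replicates, numbered 1 to 3.

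Neurofascin, the product of NFASC, sits in the axonal membrane at the node and the axon initial segment, where its cytoplasmic tail binds ankyrin and so gathers sodium channels. A shorter glial form of the same gene meets contactin-1 and CNTNAP1 across the paranodal junction, the seal that flanks the node. Gliomedin is a Schwann cell ligand of neurofascin and of NrCAM that initiates the assembly of peripheral nodes. L1CAM, CHL1, NCAM1 and NCAM2 guide neurite growth and fasciculation and are also found in tumours outside the nervous system. Counts per gene do not tell the axonal and glial forms of neurofascin apart.

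The start regions of NFASC are shown because NFASC held the widest separation between the genotypes of the 9 genes. RefSeq (build GRCh38.p14) places 2 start sites on the forward strand of chromosome 1. The windows below hold the 250 bases before each, from chr1:204828402-204828651 and chr1:204870612-204870861, with each CG dinucleotide in capitals.
NFASC, first start: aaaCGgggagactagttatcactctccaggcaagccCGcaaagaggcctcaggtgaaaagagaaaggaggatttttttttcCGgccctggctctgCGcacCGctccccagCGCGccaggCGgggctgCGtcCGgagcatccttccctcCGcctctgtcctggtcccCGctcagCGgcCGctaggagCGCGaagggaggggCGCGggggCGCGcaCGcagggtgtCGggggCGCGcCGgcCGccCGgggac
NFASC, second start: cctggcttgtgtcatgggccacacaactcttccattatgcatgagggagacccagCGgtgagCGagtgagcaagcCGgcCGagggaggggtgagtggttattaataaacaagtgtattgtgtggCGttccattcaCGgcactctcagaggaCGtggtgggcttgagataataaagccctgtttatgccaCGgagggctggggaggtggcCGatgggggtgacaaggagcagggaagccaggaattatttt
The first window holds 27 CG dinucleotides and 69.6% G and C, and 82.3% of the 35116 windows of this length in RefSeq hold fewer. The second holds 9 CG dinucleotides at 54.8% G and C, with fewer in 45.9% of all windows. Over all windows the median was 11. Of the other members, 6 were matched to 12 windows, which held from 1 (the middle of 3 starts of NRCAM) to 29 CG dinucleotides (the first start of NRCAM). The counts do not show which start was used.

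Library totals ran from 29692065 to 46010369 counts, and 17144 genes had enough counts for the test. A level of 3 counts, taken as the least that can be told from none, corresponded to 0.0674 to 0.0996 CPM (library-scaled counts, normalised by TMM). It covers counting error only. All 9 members were tested, GLDN through its WT libraries alone. PARP3 was counted 942 to 1273 times in WT and 574 to 1004 times in PARP3-/-. Reads from exons outside the disrupted part are still counted, so this count is no check of the labels. Of the fixed cell type markers, VIM, NES and SOX2 were present (3760, 927 and 38.8 CPM in WT), as were SOX10 (180 CPM) and OLIG2 (13.7). GFAP stood at 0.253 CPM in WT, and SOX9 was counted once in all libraries. In these bulk libraries, fewer cells expressing a gene and less RNA per cell cannot be told apart.

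Levels between genes were compared per length in WT, as counts divided by a median-of-ratios size factor and by the deposited median transcript length in kb. NCAM2 was highest, with 4870 ± 403 normalised counts per kb (SD, n = 3), followed by L1CAM with 2930 ± 381. NCAM1 (958 ± 29.3), CHL1 (739 ± 724) and CNTN1 (728 ± 100.3) came next, and CHL1 overlapped both. CNTNAP1 (485 ± 19.0) overlapped NRCAM (460 ± 191). NFASC was eighth with 156 ± 9.70, and GLDN was last with 11.5 ± 3.06. The deposited lengths run from 583 bases for NCAM2 to 4126 for NFASC, since short transcript models enter the median. With the length of all exons merged in GENCODE 44 in place of it, 4 of the 9 genes kept their place (NCAM2, L1CAM, NFASC and GLDN). On that scale CNTNAP1 moved up to the third place at 205 ± 8.03 and overlapped L1CAM (245 ± 31.8). CHL1 fell to the seventh.

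Of the 9 members, 2 were lower in PARP3-/- cells at an adjusted p under 0.05 (NFASC and GLDN) and 0 were higher in edgeR. Of all tested genes 3.33% were called lower and 1.36% higher at that limit. GLDN passed the filter on low counts only through its WT libraries. Past an unadjusted p of 0.05 in edgeR 3 members were lower and 2 higher, without a counted share of all tested genes. The members were chosen on this contrast, so nothing is read from their share. The median log2 fold change of the 9 was 0.15, beside −0.01 over all tested genes. With DESeq2, L1CAM was called higher beside the same 2 lower genes, where the shares of all genes were 5.09% lower and 3.15% higher. Replicate 1 stood apart from replicates 2 and 3 in both genotypes, and once the replicate number entered the fit as a block, 4 members were called lower and 3 higher. With the block 12.5% of all tested genes were lower and 11.8% higher. The groups did not overlap in 5 members, with PARP3-/- below WT in 2 and above it in 3, against 12.0% and 10.8% of all tested genes. At the stricter limits of 0.001 for the adjusted p and 1 for the size of the log2 fold change, NFASC was the single lower member and 0 were higher, beside 0.443% and 0.035% of all tested genes.

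**Figure D1:**
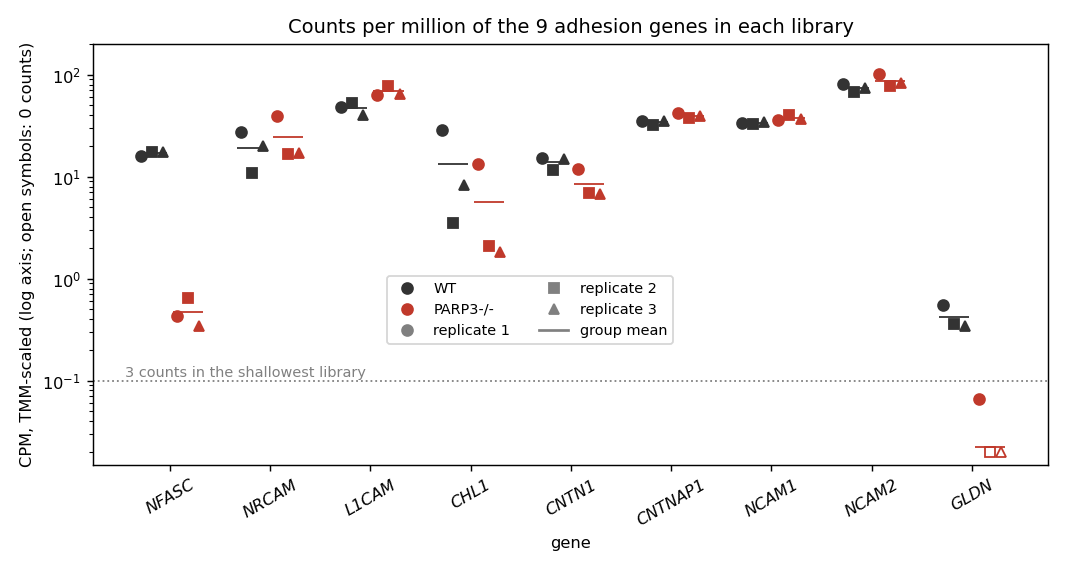
Level of each adhesion gene in CPM (log axis) in the 3 WT (black) and 3 PARP3-/- (red) libraries, with the symbol giving the replicate number and the line the group mean; open symbols near the bottom are libraries with 0 counts. NFASC lies near 17 CPM in WT and under 1 CPM in PARP3-/-, GLDN lies under the 3-count line in every PARP3-/- library, and replicate 1 stands above the others in both genotypes for CHL1 and NRCAM.

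NFASC (ENSG00000163531, chromosome 1, 204828651 to 205022822) was counted 582, 740 and 710 times in WT replicates 1 to 3 and 13, 29 and 13 times in PARP3-/- replicates 1 to 3. Its level was 15.9, 17.6 and 17.3 CPM in WT against 0.431, 0.651 and 0.344 CPM in PARP3-/-. Every PARP3-/- library kept reads above the 3-count limit and lay far below every WT library. The mean in PARP3-/- was 2.8% of that in WT, a log2 fold change of −5.12 (standard error 0.22). The highest WT library exceeded the lowest by a factor of 1.11, and the highest PARP3-/- library exceeded the lowest by 1.89. In the 6 fits with 1 library left out, the log2 fold change of NFASC ran from −5.45 to −4.93. Its difference within replicate numbers was −5.05, −4.65 and −5.46 (log2 CPM, with a prior count of 2).

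GLDN (ENSG00000186417, chromosome 15, 51341629 to 51408013) is a low gene in these cells. It was counted 20, 15 and 14 times in WT and 2, 0 and 0 times in PARP3-/-. WT replicates held 0.548, 0.357 and 0.341 CPM, and all 3 PARP3-/- libraries were under the 3-count limit. Summed over libraries, the level in PARP3-/- was 4.34% of WT, with an exact 95% interval of 0.511% to 16.5% from counting error alone. The fitted log2 fold change of −4.30 (standard error 0.76) rests on these few counts. GLDN missed the threshold when WT replicate 2 or 3 or PARP3-/- replicate 2 or 3 was left out, with fitted values between −4.41 and −3.65. Without PARP3-/- replicate 1, which leaves only libraries at 0, the fitted value was −7.07. It was not tested where a mean count of 50 was asked for.

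The other L1 family genes did not share the low level of NFASC in PARP3-/- cells. L1CAM (chromosome X, 153861514 to 153909223), the founding member, was at 48.4, 52.3 and 40.1 CPM in WT and at 63.9, 77.5 and 64.4 CPM in PARP3-/-. Every PARP3-/- library was above every WT library, and the PARP3-/- mean was 146% of the WT mean. The log2 fold change was 0.55 (standard error 0.13). It missed the threshold in edgeR and passed it with the replicate block (0.55, standard error 0.06), with DESeq2 and without the filter on low counts.

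NRCAM (chromosome 7, 108147623 to 108456717), the partner of gliomedin beside neurofascin, was at 27.1, 10.9 and 19.97 CPM in WT and at 39.5, 16.8 and 16.9 CPM in PARP3-/-. The groups overlapped and replicate 1 was highest in both. The log2 fold change was 0.33 (standard error 0.43), and 0.31 (standard error 0.13) with the replicate block. It ranged from −0.20 without PARP3-/- replicate 1 to 0.65 without WT replicate 1. NRCAM passed the threshold in none of the 11 alternative fits.

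CHL1 (chromosome 3, 196596 to 409417), the close homologue of L1CAM, varied most within WT. WT libraries held 28.4, 3.53 and 8.19 CPM and PARP3-/- libraries 13.2, 2.11 and 1.83 CPM. The highest library exceeded the lowest 8.05-fold in WT and 7.21-fold in PARP3-/-, and the groups overlapped. Within each replicate number the PARP3-/- library was the lower one, with differences of −1.1, −0.73 and −2.13 in log2 CPM for numbers 1, 2 and 3. The log2 fold change was −1.25 (standard error 0.98) and did not pass. With the replicate block it was −1.29 (standard error 0.18) and passed. Without WT replicate 1 the value in the model without the block was −0.07, and without PARP3-/- replicate 1 it was −2.75.

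CNTN1 (chromosome 12, 40692442 to 41072418), the glypiated partner of CNTNAP1 at the paranode, was at 15.2, 11.7 and 15.05 CPM in WT and at 11.9, 6.87 and 6.80 CPM in PARP3-/-. The groups touched, since PARP3-/- replicate 1 lay above WT replicate 2. The log2 fold change was −0.72 (standard error 0.24) and did not pass, while −0.75 (standard error 0.13) passed with the replicate block. Without PARP3-/- replicate 1 the value was −1.03 and passed. CNTNAP1 (chromosome 17, 42682613 to 42699814), which links contactin to the axonal cytoskeleton, moved the other way. It was at 34.8, 32.5 and 34.9 CPM in WT and at 42.3, 37.4 and 39.3 CPM in PARP3-/-, with no overlap. Its log2 fold change of 0.22 (standard error 0.08) passed with the replicate block alone (0.22, standard error 0.05).

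NCAM1 (chromosome 11, 112961247 to 113278436), which mediates homophilic adhesion, was the steadiest of the 9 genes within WT. It was at 33.8, 32.9 and 34.7 CPM in WT and at 36.2, 39.8 and 36.4 CPM in PARP3-/-. The groups did not overlap, but the log2 fold change of 0.15 (standard error 0.07) passed in no fit. NCAM2 (chromosome 21, 20998315 to 21543329) was at 81.8, 68.3 and 73.9 CPM in WT and at 102.0, 78.3 and 82.2 CPM in PARP3-/-, with overlap. Its log2 fold change was 0.23 (standard error 0.12) and 0.22 (standard error 0.05) with the replicate block, where it passed.

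**Figure D2:**
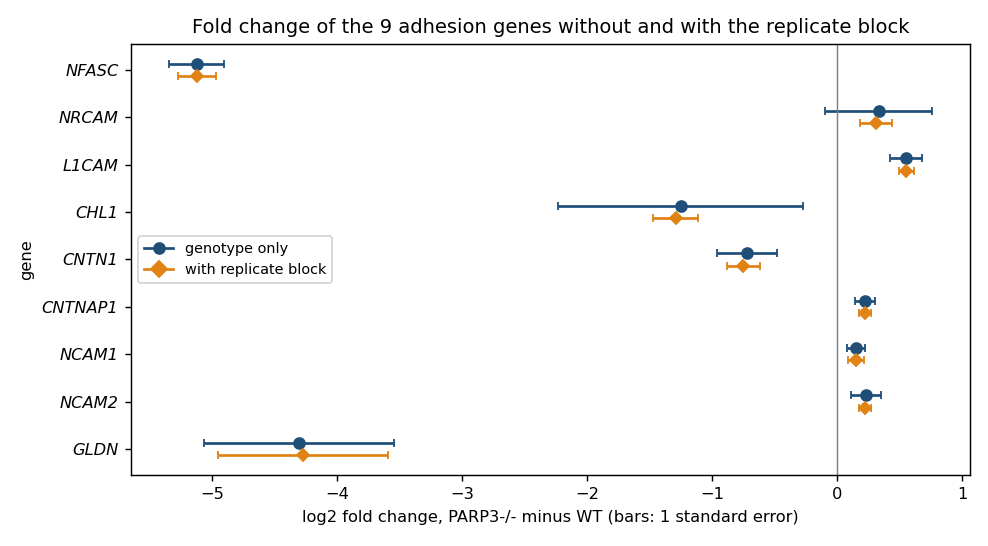
Log2 fold change (PARP3-/- minus WT) of each adhesion gene in the model with genotype only (blue circles) and with the replicate block (orange diamonds). Bars are 1 standard error. NFASC and GLDN lie below −4 in both models, the other genes between −1.29 and 0.55, and the bar of CHL1 shrinks from 0.98 to 0.18 with the block.

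The replicate number itself gives a comparison that the choice of genes did not use. In the blocked edgeR model, tested across all genes after the data had been seen, 5 of the 9 members (55.6%) differed between replicate numbers at an adjusted p under 0.05, beside 35.3% of all tested genes. These were CHL1 (adjusted p = 1.98e-05, edgeR), NRCAM (0.00046), NCAM2 (0.00571), L1CAM (0.0148) and CNTN1 (0.0337). Replicate 1 of CHL1 was 4.85 times the mean of replicates 2 and 3 in WT and 6.69 times in PARP3-/-. For NRCAM the factors were 1.76 and 2.35. Of all tested genes, 32.5% had replicate 1 above both others in both genotypes. For NFASC (adjusted p = 0.563), GLDN (0.419), NCAM1 (0.845) and CNTNAP1 (0.264) the edgeR test did not pass. What the libraries of a number share is not stated in the sources, and its part in these levels was not tested.

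Around the members, 82 further genes were counted by their known roles, as family members, ankyrins and spectrins, nodal channels, nodal matrix, shedding proteases and myelin proteins. Of these 74 were found among the listed genes and 52 were tested. Of the 52, 4 were lower (7.69%) and 3 higher (5.77%) in PARP3-/-, beside 3.33% and 1.36% of all tested genes, with a median log2 fold change of 0.00. KCNA2 and CADM2, among the lower genes, passed the filter on low counts through their WT libraries. All 7 called genes were also called in the same direction by DESeq2 and with the replicate block. The block raised the counts to 16 lower and 12 higher, beside 12.5% and 11.8% of all tested genes. DESeq2 raised them to 5 and 7, beside 5.09% and 3.15%. With 1 library left out, the called genes other than KCNA2 were called in 1 to 3 of the 6 fits.

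Among the relatives of CNTN1, the contactin CNTN5, a neuronal adhesion molecule, rose. It was counted 26, 24 and 19 times in WT and 106, 72 and 74 times in PARP3-/-, a log2 fold change of 2.01 (standard error 0.35, adjusted p = 0.0245 in edgeR). All PARP3-/- libraries lay above all WT libraries. CNTN3 showed 0.96 on the same scale (standard error 0.25) and missed the threshold (adjusted p = 0.0906 in edgeR, 0.000383 with the block). CNTN2, CNTN4 and CNTN6 were not tested.

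In the family of CNTNAP1, 2 of 4 tested relatives fell and 0 rose in edgeR, beside 3.33% and 1.36% of all tested genes. Past an unadjusted p of 0.05 in edgeR 3 were lower and 0 higher, without a counted share of all tested genes. The replicate block called 3 lower and 0 higher, beside 12.5% and 11.8%. CNTNAP4 went from 6.66 ± 1.61 CPM in WT to 2.95 ± 0.764 in PARP3-/- (SD, n = 3 each), a log2 fold change of −1.18 (standard error 0.25, adjusted p = 0.0473 in edgeR). CNTNAP3B fell by 0.44 on the log2 scale (standard error 0.08, adjusted p = 0.0331), and its near-identical copy CNTNAP3 had a value of −0.31 (adjusted p = 0.123, edgeR). Reads of these 2 copies could have been split or lost, so their separate values are uncertain.

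Ankyrins, spectrins and the membrane skeleton anchor neurofascin and its relatives inside the cell. ANK3, ankyrin-G of nodes and initial segments, was at 55.4 CPM in WT and 54.0 in PARP3-/- (log2 fold change −0.04, standard error 0.14). SPTBN1, the most abundant, was at 827 and 925 CPM (0.16, standard error 0.11).

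Among 7 tested channel genes, 1 fell and 0 rose in edgeR, beside 3.33% and 1.36% of all tested genes. Past an unadjusted p of 0.05 in edgeR 2 were lower and 0 higher, without a counted share of all tested genes. The replicate block called 3 lower and 0 higher, beside 12.5% and 11.8%. KCNA2, a juxtaparanodal potassium channel, was counted 184, 185 and 216 times in WT and 1, 0 and 0 times in PARP3-/-. Summed over libraries the PARP3-/- level was 0.182% of WT (exact 95% interval 0.00459% to 1.02%, counting error only). KCNA2 passed the filter on low counts only through its WT libraries, so its call is given as a description and not as support. The nodal sodium channel SCN8A was at 11.5 CPM in WT and 11.2 in PARP3-/- (−0.04, standard error 0.12).

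Of the 12 tested myelin and axon-glia adhesion genes, 1 fell and 2 rose in edgeR, beside 3.33% and 1.36% of all tested genes. The replicate block called 6 lower and 5 higher, beside 12.5% and 11.8%. DESeq2 called 1 lower and 3 higher, beside 5.09% and 3.15%. CADM2, a synaptic and axonal adhesion molecule, fell at a low level (0.890 to 0.296 CPM, log2 fold change −1.61, standard error 0.30). Its WT libraries carried it past the filter on low counts, so its call is given as a description and not as support. The tight junction protein of myelin CLDN11 rose from 7.31 ± 1.88 to 17.8 ± 0.643 CPM (1.28, standard error 0.19, adjusted p = 0.0117 in edgeR). MPZL1 rose from 89.6 ± 0.772 to 115 ± 1.54 CPM (0.36, standard error 0.06, adjusted p = 0.0256 in edgeR). MAG, an axon-glia adhesion molecule of the internode, was at 87.5 and 86.6 CPM (−0.02, standard error 0.21). CADM1, the most abundant, had a value of 0.22 (adjusted p = 0.338 in edgeR).

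In the nodal matrix, protease and olfactomedin-domain groups edgeR called 0 genes in either direction, while others were called with the replicate block. The block called 12.5% of all tested genes lower and 11.8% higher, and DESeq2 5.09% and 3.15%. They held 5 tested nodal matrix genes (0 called, 2 lower and 0 higher past an unadjusted p of 0.05; 3 lower with the block, 1 lower by DESeq2), 7 shedding proteases (0 called, 0 lower and 2 higher unadjusted; 1 lower and 3 higher with the block, 2 higher by DESeq2) and 4 olfactomedin-domain genes related to gliomedin (0 called, 0 and 0 unadjusted; 2 higher with the block, 0 by DESeq2). DAG1, dystroglycan, had a log2 fold change of −0.38 (adjusted p = 0.0917 in edgeR, 0.000433 with the block). PLAT had 0.25 (0.350, and 0.0149 with the block) and OLFML2A 0.25 (0.464, and 0.00837 with the block). ST8SIA4, which adds polysialic acid to NCAM1, had −0.05 (0.920 in edgeR).

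**Figure D3:**
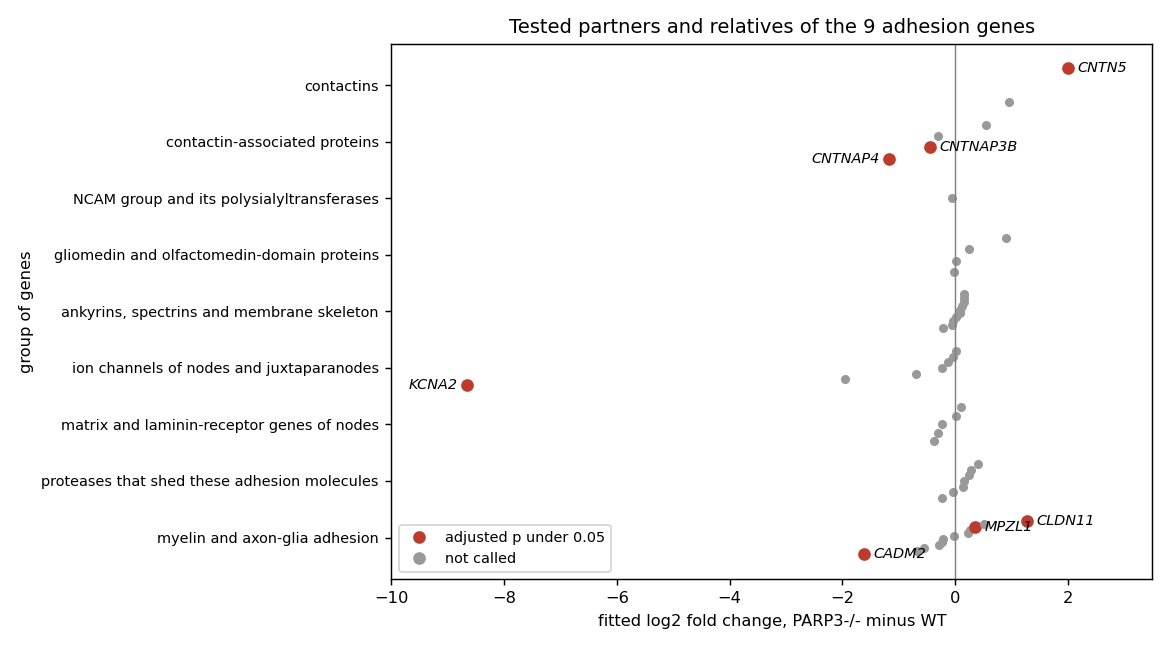
Fitted log2 fold change (PARP3-/- minus WT) of 52 tested relatives and partners, by group. Red points passed an adjusted p under 0.05 in edgeR and are named, grey points did not. The 4 named lower genes spread over 3 groups, KCNA2 lies furthest out, and its fitted value depends on a single count in PARP3-/-.

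Markers of other cell types moved between the genotypes in part. The 5 oligodendrocyte lineage markers summed to 494 to 662 CPM in WT and 397 to 494 CPM in PARP3-/-, with 0 called by edgeR. The 5 fibroblast markers summed to 52.1 to 74.1 CPM and 75.2 to 139 CPM, with DCN lower and COL1A2 higher. In the astrocytic and neural stem list and in the Schwann cell list edgeR also called 1 marker lower each, not reported here. Of all tested genes 3.33% were called lower and 1.36% higher. Neuronal markers summed to 81.9 to 167 CPM in WT and 88.3 to 154 in PARP3-/-, and RBFOX3 and STMN2 had at most 2 counts in all. Immune markers were under 1 CPM. The part of these markers in the levels of NFASC and GLDN was not tested.

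The position of NFASC and GLDN was compared with their surroundings, a property that the choice of genes did not use. Within 500 kb of NFASC 12 other genes were tested, with log2 fold changes from −0.89 to 0.31 and a median of −0.05. In edgeR 0 were called, with 3 lower and 0 higher past an unadjusted p of 0.05. PIK3C2B was called lower by DESeq2, beside 5.09% of all tested genes. With the replicate block 4 were lower and 1 higher, beside 12.5% and 11.8% of all tested genes. The nearest tested genes on either side, TMEM81 at 60.3 kb and MDM4 at −270.5 kb, had values of 0.26 (standard error 0.12) and −0.01 (standard error 0.22). Within 500 kb of GLDN 7 genes were tested, from −0.44 to 0.31 with a median of −0.01. Here edgeR and DESeq2 called 0, with 0 lower and 1 higher past an unadjusted p of 0.05 in edgeR. The replicate block called 2 higher, beside 11.8% of all tested genes. The nearest, DMXL2 at 39.7 kb, had a value of 0.31 (standard error 0.10), and AP4E1, on the other side at −335.7 kb, −0.05 (standard error 0.08). No tested neighbour came near the value of NFASC or GLDN. CNTN2 (chromosome 1, 205042937 to 205078284) lies between NFASC and TMEM81 and had too few counts for the test. It had 11 counts in WT and 1 in PARP3-/-, so it cannot be set beside the tested neighbours. AL391822.1 lies within NFASC and had 5 counts in all.

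**Figure D4:**
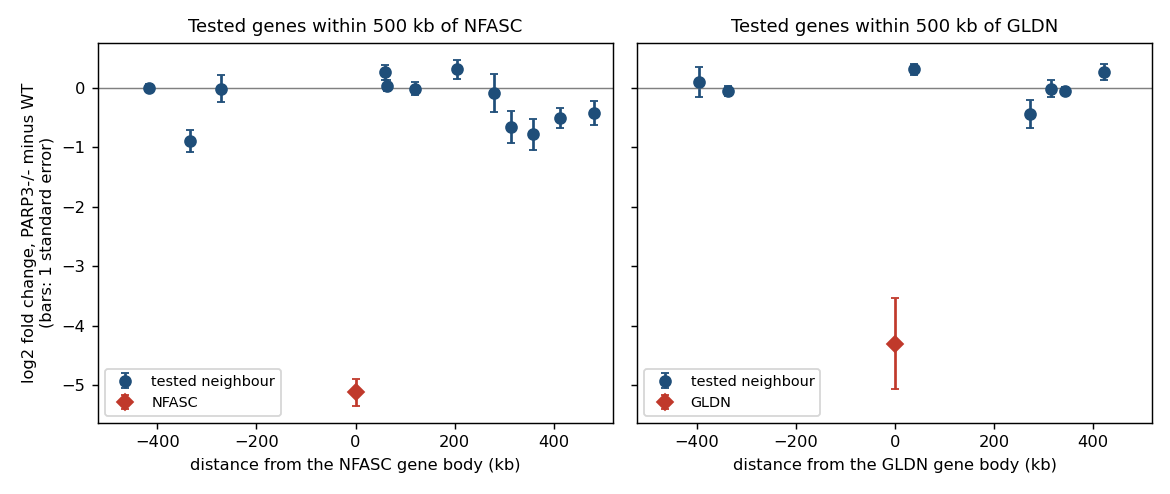
Log2 fold change (PARP3-/- minus WT) of the tested genes within 500 kb of NFASC (left) and GLDN (right) against their distance from the gene body in kb, with 1 standard error. The 12 and 7 neighbours (blue) lie between −0.89 and 0.31, while NFASC and GLDN (red) lie at −5.12 and −4.30.

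The genes whose levels ran most like those of the 2 lower members were sought among 15155 tested genes with a mean count of at least 20, by the root mean square difference of centred log2 CPM over the 6 libraries. For NFASC these were KAZN (0.120), CHST15 (0.187) and LINC00689 (0.225). Each had a mean of 1.96 to 2.34 CPM in WT and 1 count in all of PARP3-/-, so that their likeness depends on the prior count of 2. For GLDN, itself at few counts, genes of similar pattern were SCUBE3 (0.229) and COL22A1 (0.245). SCUBE3 went from 2.73 ± 0.382 to 0.539 ± 0.367 CPM and COL22A1, a collagen chain, from 13.7 ± 3.87 to 2.46 ± 0.886 CPM (SD, n = 3 each).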

How the data were processed

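RNA of 3 WT and 3 PARP3-/- LN229 replicates was sequenced from ribosomal RNA-depleted total RNA with a stranded kit (the labels name polyA RNA). The authors trimmed reads with cutadapt 1.10, removed ribosomal and spike-in reads with Bowtie2 2.2.8, aligned to hg38 with STAR 2.5.3a and counted with HTSeq 0.6.1p1 in union mode (versions per the labels and methods). The deposited values used are raw counts per Ensembl gene and a deposited median transcript length. Union mode drops reads on several genes, and the strand setting is not given in the sources used here. A further 12 per-library columns of normalized values were not used, so levels per kb were recomputed from the counts. The authors' own fold changes and p-values were not used.

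Counts were analysed in R 4.3.3 with edgeR 4.0.16 (quasi-likelihood, TMM, filterByExpr with a minimum count of 10, Benjamini-Hochberg over all tested genes). A gene was called at an adjusted p under 0.05. The share of all tested genes past an unadjusted p of 0.05 was not counted, so nothing is read from counts at that limit. The standard error is the size of the fold change over the square root of F. Alternatives were DESeq2 1.42.0, median-of-ratios size factors, no filter, a mean count of 50, an adjusted p under 0.001 with a log2 fold change beyond 1, a replicate block, each library left out, and windows of 250 and 1000 kb. The fits were tested on counts simulated with the same dispersion for all genes, no replicate effect and no changed genes at low levels. The simulation therefore does not check calls at few counts, such as GLDN, or the block where replicates differ. The block was used because deviations of same-numbered libraries from the group means correlated over genes above 0.1 for each number (0.676, 0.517 and 0.242 for 1, 2 and 3). WT 2 with PARP3-/- 3 (0.41) and WT 3 with PARP3-/- 2 (0.264) also correlated, so these values do not tell 2 from 3. Replicate 1 correlated negatively with numbers 2 and 3 (−0.628 to −0.341). Deviations from a group mean cancel within each genotype. Negative values therefore had to arise beside the positive ones, and they add nothing to the separation of replicate 1. Replicates are biological per the labels.

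The members and lists were chosen with earlier results of these data known. Named genes are the members, PARP3, of each list up to 4 called genes and the most abundant, the 3 genes of most similar pattern, and called or nearest neighbours within 500 kb. NES, VIM, SOX2, ANK3, MAG, CNTN3, PIK3C2B and the untested genes were named in view of their values. Replicate number was tested, and merged exon lengths (GENCODE 44) were used, after the data had been seen. Promoter windows are from RefSeq. Some genes of the lists, called ones among them, are not reported here and were left out of the counts of relatives and partners.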

Additional observations from a re-analysis of the deposited data

How the results depend on the processing

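NFASC was called in all 11 alternative fits and under the stricter threshold. It was chosen on this contrast, so these calls are a description and not support. The direction of every called member and partner held in all fits that tested it. Members called lower numbered 2, against 4 with the replicate block, 1 with a mean count of at least 50, 1 under the adjusted p under 0.001 and log2 fold change beyond 1, and 1 to 3 with single libraries left out. Members called higher numbered 0, against 3 with the replicate block, 1 with DESeq2 and 1 without the filter. Partners called lower (4) and higher (3) became 16 and 12 with the block, 1 and 0 under the stricter threshold, 2 and 3 with a mean count of at least 50, and 1 to 4 and 0 to 3 with single libraries left out. DESeq2 called 7 partners higher. Of all tested genes, the block called 12.5% lower and 11.8% higher, and DESeq2 5.09% and 3.15%. Near NFASC, the count of lower genes went from 0 to 4 and of higher genes from 0 to 1 with the block, and 1 was lower with DESeq2 and without the filter. Near GLDN, higher genes went from 0 to 2 with the block and to 1 in the window of 1000 kb. With merged exon lengths 4 of 9 members kept their place in the order of levels, against 9 with CPM per kb. Among genes that were not called, the sign turned with single libraries left out, with values from −0.11 to 0.02 for ST8SIA4, −0.10 to 0.03 for SCN8A, −0.21 to 0.22 for MDM4 and −0.08 to 0.01 for AP4E1, and for MDM4 (0.00) with the replicate block. The cause of these changes was not tested. At these depths GLDN and other genes under about 1 CPM are limited by counting error, and fits without a library assume that the remaining pair varies like the other group.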

Other observations

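Some relatives and partners had too few counts for the test. BCAN, a proteoglycan of the nodal matrix, had 27 counts in the WT libraries together and 4 in PARP3-/-, a ratio of 15.7% (exact 95% interval 4.002% to 45.2%, counting error only). CNTN2, the contactin of the juxtaparanode, which lies near NFASC on chromosome 1, had 11 and 1 counts (9.66%, interval 0.224% to 66.5%). The groups did not overlap in either gene, but both were named in view of their values. The share of untested genes without overlap was not counted, so nothing is read from this. NCAN, another matrix proteoglycan, had 6 and 0 counts. HAPLN2, SCN1A and ST8SIA2 had at most 2 counts over all 6 libraries, which leaves any difference in them undetectable at this depth.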
